A study of Mus musculus with 8 samples.

Results

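The genes described here are 10 members of the Notch signalling pathway: the receptors Notch1, Notch2 and Notch3, the ligands Dll1, Dll3 and Jag1, the receptor-modifying enzyme Lfng, and the target genes Hes1, Hes5 and Hey1. They were chosen by name and with earlier results of these data known, and all 10 were listed in both tables of unique molecular identifier (UMI) counts, which held 17836 genes for one sort and 15769 genes for the other. Their levels were followed in every library and in cells grouped by marker counts into astrocytes, oligodendrocyte precursors, dividing cells and neurons.

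Single cells were sorted for a fluorescent reporter from the frontal isocortex of mice at postnatal day 7 and profiled by 3′ droplet RNA sequencing. One sort took cells positive for Drd1a-tdTomato (D1Tom), a bacterial artificial chromosome reporter of the dopamine D1 receptor gene. The other took cells positive for golli-τ-eGFP (GTE), a reporter driven by a golli promoter element of the myelin basic protein gene. Controls had floxed Foxp2 alleles (Foxp2 flox/flox) and the reporter but no Cre. Conditional knockouts (cKO) had Emx1-Cre in addition, so floxed alleles, reporter and C57BL/6J background were common to every animal. The GTE cKO genotype is written in the labels with Foxp2 flox/flox given both before and after Emx1-Cre. Emx1-Cre acts in dorsal forebrain progenitors, which give rise to cortical excitatory neurons and glia, whereas most cortical inhibitory neurons come from ventral progenitors that lack it. Each sort had 2 control and 2 cKO libraries, 8 in all. In the D1Tom sort, control 1 and cKO 1 were prepared on one day (batch 1, females) and control 2 (female) and cKO 2 (male) on another (batch 2). The labels do not say how many mice entered a library, so p-values measure only the spread between libraries.

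The D1Tom libraries held 2395 to 3206 cells and 27323298 to 36379194 counts, and the GTE libraries held 1440 to 3948 cells and 4878370 to 6092396 counts. Median counts per cell ran from 7198 to 12815 in D1Tom and from 1085.5 to 2982 in GTE. Barcodes were found in more than 1 library for 97 of 11391 D1Tom barcodes and 63 of 11316 GTE barcodes. The sorts did not hold neurons alone. Astrocytes made up 22.5 to 34.1% of the cells in each D1Tom library, precursors 3.17 to 10.6%, dividing cells 5.40 to 7.56% and neurons 19.1 to 43.9%. One GTE library stood apart: cKO 1 had 46.0% astrocytes, 33.2% precursors and 2.43% neurons, against neuron shares of 7.46 to 12.6% in the other GTE libraries. It was also the deepest GTE library per cell, with a median of 2982 counts against 1085.5 to 1268 in the others. Only 7.99% of its cells fell in no class, against 59.5 to 75.3% in the others. Class shares of all cells are therefore not like for like between these libraries. A cell entered a class from summed marker counts, none of them a Notch pathway gene, and a class is therefore a range of marker counts rather than a sorted type. Of the D1Tom cells in a class, 2.64 to 8.29% of astrocytes, 1.17 to 19.7% of precursors, 8.09 to 18.8% of dividing cells and 11.02 to 16.9% of neurons changed class when each threshold was moved by 20% either way. In the D1Tom astrocyte class the median astrocyte marker count was 106 to 141 per 10000 counts and the median neuron marker count 21.9 to 52.7. In the D1Tom neuron class the same medians were 4.07 to 12.9 and 157 to 161. GTE dividing cells numbered 17 to 92 per library and were not fitted. In sums over cells, fewer cells of a type and less RNA per cell cannot be told apart.

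Notch receptors are surface proteins that are cut when a Delta or Jagged ligand on a neighbouring cell binds them. The freed intracellular domain enters the nucleus, joins the DNA-binding protein Rbpj and turns on repressors of the Hes and Hey families. In the cerebral cortex the pathway is known for keeping radial progenitors undifferentiated, for favouring astrocyte over neuron fate and for restraining oligodendrocyte precursors from maturing.

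The 10 genes lie on 7 chromosomes (2, 3, 4, 5, 7, 16 and 17) of the mouse build GRCm38.p6. Notch1 spans chr2:26457902-26503822, Notch2 chr3:98013538-98150367 and Notch3 chr17:32120820-32166896. Dll1 spans chr17:15367354-15376932, Dll3 chr7:28293555-28301785 and Jag1 chr2:137081451-137116520. Lfng spans chr5:140607341-140615545, Hes1 chr16:30065357-30067796, Hes5 chr4:154960626-154962372 and Hey1 chr3:8663359-8667038. Upstream sequence of 250 bases before a RefSeq start was at hand for 8 of the 10 members, and it was searched on both strands for TGGGAA, the core letters that Rbpj binds. Only Hes5 and Lfng held a match, each once in each orientation. Over all 32851 RefSeq promoter windows of the same length, 21.6% held the letters on at least 1 strand and 1.28% held both orientations. Of 36 other pathway genes with such sequence, 10 held a match. Notch1, Notch2 and Notch3, which were higher in D1Tom astrocytes than in neurons as Hes5 and Lfng were, held none. The 4 matches are printed as the only ones among the members, and no link to the class differences was tested. The Hes5 window lies inside the span given above, which begins further upstream, so its distances run from the RefSeq start used for the window and not from the first base of the gene. Each line gives 30 bases on the gene's strand, 5′ to 3′, with the matched letters, read directly or on the opposite strand, in capitals.
Hes5, 226 bases before the start, chr4:154960685-154960714, plus strand: agggcgagcgcgTTCCCAcagcccggacat
Hes5, 82 bases before the start, chr4:154960829-154960858, plus strand: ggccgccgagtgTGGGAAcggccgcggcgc
Lfng, 135 bases before the start, chr5:140607194-140607223, plus strand: ccagctgggtggTTCCCAgccccttgtccg
Lfng, 108 bases before the start, chr5:140607221-140607250, plus strand: ccgtatcccacgTGGGAAggagagatctcc
As an example of a member without a match, the 250 bases before the start of Dll3 are given on its own strand, where neither orientation was found.
Dll3, chr7:28301786-28302035, minus strand: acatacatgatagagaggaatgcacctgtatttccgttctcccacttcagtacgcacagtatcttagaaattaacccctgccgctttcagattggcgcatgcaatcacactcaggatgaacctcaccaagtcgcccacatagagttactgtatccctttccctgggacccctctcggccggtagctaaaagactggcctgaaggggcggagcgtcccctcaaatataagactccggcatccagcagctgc
A match to these letters describes the window only. No upstream sequence was used for Hes1 or Hey1.

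The question of where the pathway was expressed was asked first, by setting the classes of each sort against each other. In D1Tom astrocytes 8 of the 10 members were higher and 1, Dll3, was lower than in neurons, by edgeR's quasi-likelihood test on counts summed per library and class with the library as a block and an adjusted p under 0.05. Of all 12970 genes tested, 64.3% passed in that comparison, 32.3% as higher and 32.1% as lower. All 10 members passed between dividing cells and neurons, 9 higher and 1 lower, where 66.3% of genes passed, 32.7% as higher and 33.6% as lower. Between precursors and neurons 6 members passed, all higher, where 52.1% of genes passed, 25.5% as higher and 26.7% as lower. Between astrocytes and precursors 9 members passed, 6 higher and 3 lower in astrocytes, where 31.2% of genes passed, 17.0% as higher and 14.2% as lower. Levels below are CPM, a gene's counts per 1000000 summed counts of a class, and differences are log2 fold changes with their standard error (SE).

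**Figure D1:**
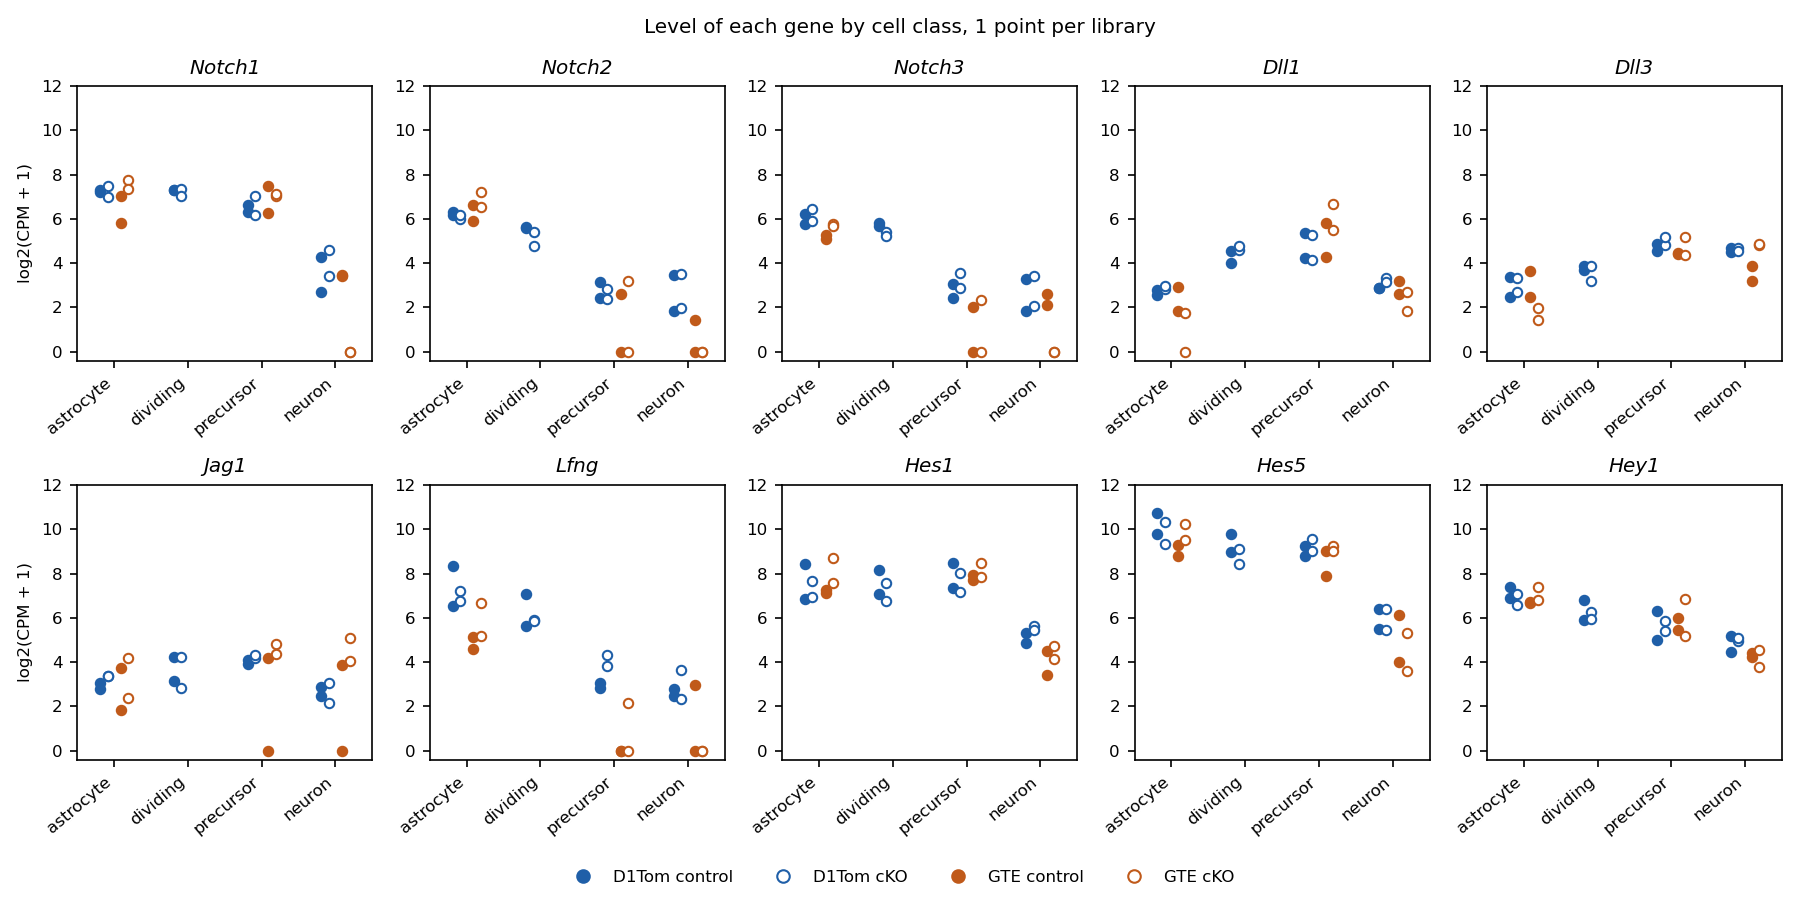
Level of each of the 10 Notch pathway genes, as log2(CPM + 1), in the astrocyte, precursor, dividing and neuron classes of the D1Tom sort and the astrocyte, precursor and neuron classes of the GTE sort, with 1 point per library, filled for control and open for cKO. Notch2, Notch3 and Lfng are high in astrocytes and low in both precursors and neurons, while Notch1 and Hes1 are high in astrocytes, precursors and dividing cells alike.

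Notch1, the receptor most studied in neural progenitors, was present in all 3 glial and dividing classes and low in neurons. In D1Tom astrocytes it stood at 146 and 156 CPM in controls and 179 and 124 CPM in cKO libraries. In precursors it stood at 98.1 and 79.3 CPM in controls and 128 and 71.1 CPM in cKO libraries. In dividing cells it was 157, 155, 162 and 130 CPM in the same order, and in neurons 5.40, 18.5, 9.80 and 23.0 CPM. Astrocytes and dividing cells overlapped at the top of the order, with means of 151 ± 22.8 and 151 ± 14.2 CPM (SD, n = 4 libraries). Precursors came next, below every dividing value but overlapping the lowest astrocyte library, and neurons lay below all of them. The difference from neurons was 3.64 log2 units (SE 0.30, edgeR adjusted p = 3.33e-08) in astrocytes, 2.85 (SE 0.31, adjusted p = 1.85e-06) in precursors and 3.47 (SE 0.30, adjusted p = 7.94e-08) in dividing cells. Astrocytes exceeded precursors by 0.79 (SE 0.28, edgeR adjusted p = 0.0439), a call that was lost under 7 alternatives. These were leaving out cKO 1 (adjusted p = 0.104) or control 2 (0.137), library totals in place of TMM scaling (edgeR's trimmed mean of M values, 0.113), no replicate block (0.0531), cells with high doublet scores left out (0.0645), a stricter class margin (0.0511) and controls alone (0.212). In the GTE sort Notch1 was higher in astrocytes than in neurons by 4.20 (SE 0.46) and in precursors than in neurons by 3.85 (SE 0.48), and the difference between astrocytes and precursors was 0.35 (SE 0.30, edgeR adjusted p = 0.53).

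Notch2 and Notch3, receptors of the same family, separated astrocytes from precursors. Notch2 stood at 70.6, 78.3, 62.9 and 72.2 CPM in D1Tom astrocytes (control 1, control 2, cKO 1 and cKO 2, the order used from here on) and at 7.82, 4.41, 4.22 and 6.02 CPM in precursors. Every astrocyte value was above every dividing value (26.7 to 49.0 CPM), and every dividing value above every neuron value (2.60 to 10.5 CPM). Neurons and precursors overlapped at the bottom. The astrocyte level exceeded the precursor level by 3.66 log2 units (SE 0.37, edgeR adjusted p = 1.13e-06) and the neuron level by 3.78 (SE 0.27, adjusted p = 1.09e-08), while precursors and neurons differed by 0.12 (SE 0.45, adjusted p = 0.848). Notch3 stood at 74.7, 54.0, 85.2 and 59.8 CPM in astrocytes and 4.34, 7.34, 6.33 and 10.8 CPM in precursors. Its astrocyte values overlapped those of dividing cells (36.8 to 54.9 CPM), and its precursor values overlapped those of neurons (2.55 to 9.70 CPM). Astrocytes exceeded precursors by 3.54 (SE 0.43, edgeR adjusted p = 8.25e-06). In the GTE sort the same step was 4.91 (SE 0.48, adjusted p = 1.01e-08) for Notch2 and 4.48 (SE 0.66, adjusted p = 8.97e-06) for Notch3. GTE neurons held 1 Notch2 count in all, so no fold is given for Notch2 against that class.

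Dll1, a ligand that activates Notch on neighbouring cells, had its highest levels in precursors and dividing cells. It stood at 40.4, 17.6, 37.4 and 16.9 CPM in D1Tom precursors and at 22.6, 15.3, 23.4 and 26.8 CPM in dividing cells, and these ranges overlapped. Astrocytes (4.86 to 6.77 CPM) and neurons (6.26 to 9.09 CPM) were both lower than every library of those classes. Precursors exceeded neurons by 1.99 log2 units (SE 0.24, edgeR adjusted p = 4.32e-06) and astrocytes by 2.15 (given as astrocytes minus precursors, -2.15, SE 0.25, adjusted p = 5.16e-06). Astrocytes and neurons differed by -0.16 (SE 0.23, adjusted p = 0.557). In GTE precursors Dll1 stood at 18.1, 55.0, 101 and 43.5 CPM, above neurons by 2.85 (SE 0.69, edgeR adjusted p = 0.00272), a call lost in controls alone (adjusted p = 0.247).

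Dll3, a divergent ligand known to act inside the cell rather than to activate Notch on neighbours, was the 1 member higher in neurons than in astrocytes. It stood at 21.9, 25.0, 24.7 and 22.7 CPM in D1Tom neurons and at 4.48, 9.39, 5.58 and 9.02 CPM in astrocytes, with no overlap. Precursors had 22.1 to 34.9 CPM, which overlapped the neuron values, and dividing cells had 8.21 to 13.8 CPM. The difference of astrocytes from neurons was -1.64 log2 units (SE 0.19, edgeR adjusted p = 9.87e-07) and that from precursors -1.86 (SE 0.21, adjusted p = 4.59e-06). In the GTE sort the same differences were -1.98 (SE 0.69, adjusted p = 0.0315) and -2.08 (SE 0.65, adjusted p = 0.0267). Both GTE calls were lost without cKO 1 (adjusted p = 0.214 and 0.283), without cKO 2 (0.263 and 0.102), without control 2 (0.0687 and 0.0784) or in controls alone (0.824 and 0.603).

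Jag1, a ligand of the Jagged family, varied least between classes. It stood at 14.3, 16.2, 17.4 and 19.3 CPM in D1Tom precursors, at 7.97, 17.9, 6.16 and 18.0 CPM in dividing cells, at 7.42, 5.83, 9.50 and 9.40 CPM in astrocytes and at 6.31, 4.59, 3.41 and 7.43 CPM in neurons. Each class overlapped the next in the order of levels, and the dividing values separated by batch, with control 2 and cKO 2 high. Precursors exceeded neurons by 1.64 log2 units (SE 0.32, edgeR adjusted p = 0.000479), a call kept without any 1 library and lost in controls alone (adjusted p = 0.0509). The smaller differences of dividing cells from neurons (1.16, SE 0.30, edgeR adjusted p = 0.00311), of astrocytes from neurons (0.73, SE 0.28, adjusted p = 0.0333) and of astrocytes from precursors (-0.91, SE 0.32, adjusted p = 0.0403) did not all hold. The first was lost without control 2, in batch 1 alone and in controls alone (adjusted p from 0.0513 to 0.345). The second was lost without cKO 1 or cKO 2, within either batch, in controls alone, without TMM and with no replicate block (0.0513 to 0.505). The last was lost without any 1 of the 4 libraries, in batch 1 alone, in controls alone, without high doublet scores and with no replicate block (0.0508 to 0.219). In the GTE sort none of the 3 Jag1 class comparisons passed by edgeR.

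Lfng, which encodes Lunatic fringe, a Golgi enzyme that adds sugars to Notch and changes its response to different ligands, was an astrocyte gene in these data. It stood at 325, 90.9, 147 and 107 CPM in D1Tom astrocytes, 136, 49.0, 58.3 and 57.8 CPM in dividing cells, 6.08, 7.34, 13.2 and 19.3 CPM in precursors and 4.63, 5.90, 3.98 and 11.7 CPM in neurons. Control 1 was the highest library in astrocytes and in dividing cells, and dividing cells were above every precursor and neuron value. The astrocyte level exceeded that of neurons by 4.77 log2 units (SE 0.39, edgeR adjusted p = 2.92e-08) and that of precursors by 4.08 (SE 0.47, adjusted p = 4.15e-06). In GTE precursors Lfng had 5 counts, all in cKO 1. GTE astrocytes held 34.2, 22.8, 100 and 34.96 CPM and exceeded GTE neurons, which held 4 counts, by 4.01 (SE 0.74, edgeR adjusted p = 0.000156), a call lost in controls alone (adjusted p = 0.132).

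Hes1, a repressor and a main Notch target, did not separate astrocytes from precursors. It stood at 343, 114, 204 and 123 CPM in D1Tom astrocytes, 353, 162, 263 and 145 CPM in precursors, 290, 136, 187 and 108 CPM in dividing cells and 27.8, 38.3, 48.2 and 43.0 CPM in neurons. The 3 upper classes overlapped and every one of their values was above every neuron value. Astrocytes minus precursors was -0.13 log2 units (SE 0.24, edgeR adjusted p = 0.741) in D1Tom and -0.04 (SE 0.23, adjusted p = 0.949) in GTE. Against neurons, Hes1 was higher by 2.28 (SE 0.25) in D1Tom astrocytes, 2.41 (SE 0.26) in precursors and 2.02 (SE 0.25) in dividing cells, with adjusted p from 6.1e-07 to 2.57e-06.

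Hes5, the target most used as a readout of Notch activity in neural progenitors, was highest in astrocytes. It stood at 1729, 889, 1277 and 653 CPM in D1Tom astrocytes, 599, 444, 750 and 517 CPM in precursors, 895, 497, 549 and 348 CPM in dividing cells and 43.9, 83.5, 42.7 and 82.7 CPM in neurons. Astrocytes, precursors and dividing cells overlapped and neurons lay below all of them. Hes5 was higher than in neurons by 4.21 log2 units in astrocytes (SE 0.32, edgeR adjusted p = 1.74e-08), 3.14 in precursors (SE 0.31, adjusted p = 6.38e-07) and 3.05 in dividing cells (SE 0.31, adjusted p = 3.66e-07). Astrocytes exceeded precursors by 1.07 (SE 0.29, edgeR adjusted p = 0.00882) in D1Tom and by 0.96 (SE 0.26, adjusted p = 0.0096) in GTE, and the GTE call was lost without control 2 (adjusted p = 0.0654), without TMM (0.0557), with no replicate block (0.275) and in controls alone (0.152).

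Hey1, a repressor related to the Hes proteins, stood at 169, 117, 136 and 95.9 CPM in D1Tom astrocytes, 110, 58.7, 75.2 and 60.3 CPM in dividing cells, 77.3, 30.8, 57.5 and 40.9 CPM in precursors and 20.9, 35.6, 29.6 and 33.3 CPM in neurons. Neighbouring classes overlapped at each step, including precursors and neurons. Astrocytes exceeded neurons by 2.21 log2 units (SE 0.21, edgeR adjusted p = 1.29e-07) and precursors by 1.43 (SE 0.22, adjusted p = 0.000102). Precursors exceeded neurons by 0.78 (SE 0.23, edgeR adjusted p = 0.0101), which was lost without control 1 (adjusted p = 0.0675) or cKO 1 (0.0886), in controls alone (0.136) and in batch 2 alone (0.10, adjusted p = 0.778). In GTE, Hey1 was higher than in neurons by 2.59 (SE 0.33) in astrocytes and 1.37 (SE 0.36) in precursors, and the second call was lost without cKO 1 (adjusted p = 0.0556) or in controls alone (0.138).

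**Figure D2:**
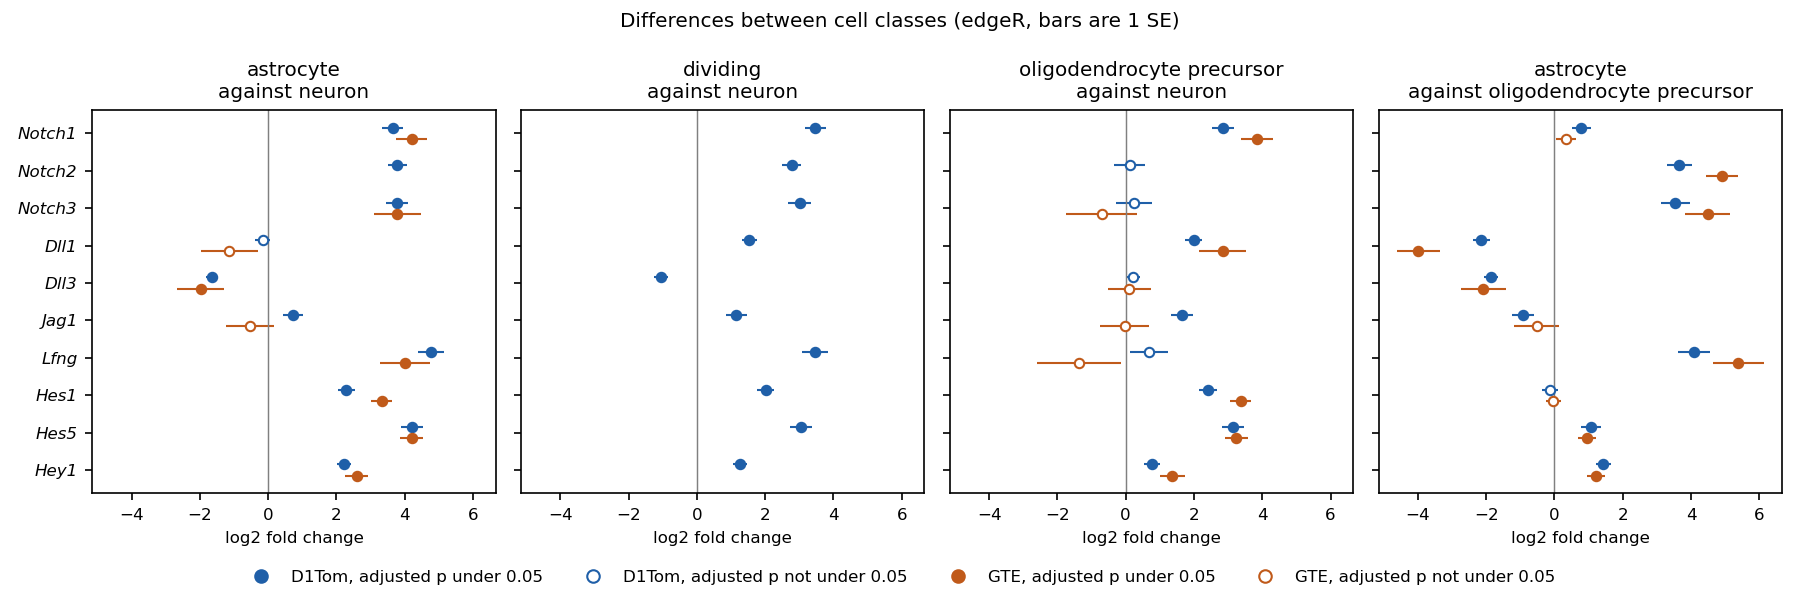
Log2 fold change of each of the 10 members between classes (x axis, points with bars of 1 SE), for D1Tom and GTE, with filled points for an edgeR adjusted p under 0.05; GTE Notch2 is not drawn against neurons. Between D1Tom precursors and neurons Notch2 (0.12) and Notch3 (0.24) lie near 0 and Lfng lies at 0.68 (SE 0.55), none of them called. Notch2, Notch3 and Lfng lie above 3 between astrocytes and precursors.

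In the GTE sort 8 of 10 members passed between astrocytes and neurons, 7 higher and 1 lower, against 28.0% of all 9380 genes tested (14.9% higher, 13.0% lower). Between precursors and neurons 5 passed, all higher, against 27.5% (13.3% higher, 14.2% lower), and between astrocytes and precursors 7 passed, 5 higher and 2 lower in astrocytes, against 16.0% (8.88% higher, 7.13% lower). The 5 members higher in GTE precursors than in neurons were Notch1, Dll1, Hes1, Hes5 and Hey1, each also higher in D1Tom precursors. In controls alone the calls between GTE astrocytes and precursors were lost for Dll1 (adjusted p = 0.169), Hey1 (0.0898) and Lfng (0.0569). Jag1, higher in D1Tom precursors, differed by -0.02 (SE 0.72) between GTE precursors and neurons. With library totals alone in place of TMM, the median of all genes in the D1Tom comparison of astrocytes with precursors moved from 0.02 to -0.13, and the share of called genes that were higher in astrocytes from 54.5 to 36.8%. In GTE that median moved from 0.03 to -0.24 and the share from 55.5 to 36.4%. Between GTE precursors and neurons the median moved from 0.03 to 0.34 and the share from 48.3 to 71.0%.

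Detection per cell followed the summed levels. Each cell was thinned to 1000 counts, which left out 22 D1Tom neurons, and the exact Clopper-Pearson 95% intervals cover counting error only. At least 1 Notch1 count was then found in 13.3% of D1Tom astrocytes (interval 12.2 to 14.5%), 12.2% of dividing cells, 8.25% of precursors and 1.07% of neurons (0.776 to 1.43%). Without thinning the Notch1 shares were 53.8, 66.1, 34.7 and 10.7%. Hes5 was found in 54.2% of thinned astrocytes, 36.9% of dividing cells, 37.3% of precursors and 4.80% of neurons, and in 90.9, 86.9, 75.8 and 36.0% of unthinned cells. Lfng was found in 15.8% of thinned astrocytes and 0.837% of precursors, the latter near the 0.606% of neurons. Median depth differed between classes, with 7122.5 to 10026 counts per astrocyte and 6210 to 16477.5 per neuron across D1Tom libraries.

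The low levels in neurons were also expressed as a percentage of the level in the astrocytes of the same library. The summed level of the 15 astrocyte markers is given beside them, but these markers defined both classes, so their percentage is set in part by that rule and is no independent measure of astrocyte RNA in neurons. In D1Tom neurons the astrocyte marker list stood at 4.27, 12.6, 5.61 and 16.5% of its astrocyte level. Notch1 stood at 3.70, 11.9, 5.47 and 18.6%, Notch2 at 3.69, 12.7, 4.63 and 14.5%, and Notch3 at 3.42, 16.4, 3.67 and 16.2%. Hes5 stood at 2.54 to 12.7% and Lfng at 1.42 to 10.9%. Hes1 stood at 8.09, 33.7, 23.6 and 35.1% and Hey1 at 12.4, 30.4, 21.8 and 34.8%, each above the 5 genes before it in 4 of 4 libraries. Dll1 (105 to 147%) and Dll3 (252 to 489%) were as high in neurons as in astrocytes or higher. How much of the neuron counts came from astrocyte RNA was not tested.

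**Figure D3:**
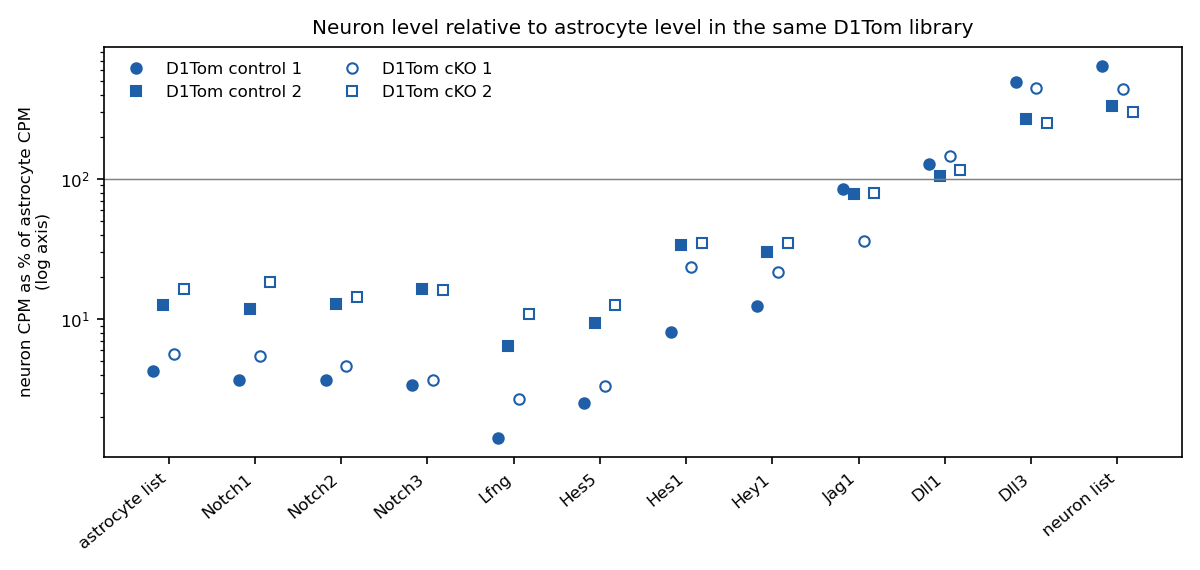
Level in D1Tom neurons as a percentage of the level in astrocytes of the same library (log axis) for each member and for the astrocyte and neuron marker lists, which defined the classes, 1 point per library. Notch1, Notch2, Notch3, Hes5 and Lfng lie at 1.42 to 18.6%, Hes1 and Hey1 above those 5 in each library, and Dll3 at 252 to 489%.

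The level of Hes1 in neurons differed between excitatory and inhibitory ones, which were told apart by marker counts. Hes1 stood at 32.3, 41.9, 62.4 and 52.6 CPM in D1Tom excitatory neurons and 10.4, 10.9, 10.5 and 16.9 CPM in inhibitory neurons, with no overlap. In excitatory neurons that was 9.40, 36.9, 30.6 and 42.9% of the astrocyte level, against 4.41, 13.0, 5.99 and 16.5% for the astrocyte marker list. In inhibitory neurons it was 3.03, 9.60, 5.13 and 13.8%, against 3.85, 7.78, 4.37 and 14.8% for the list. Hey1 stood at 22.7 to 38.3 CPM in excitatory and 11.1 to 22.8 CPM in inhibitory neurons, with each excitatory value above the inhibitory value of its library. The difference between the 2 kinds of neuron was not tested, and the share of all genes without overlap between them was not computed.

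Dividing cells were a mixture, and the levels of some members differed with the markers these cells carried. By the class rule, 286 (39.9%) of 716 D1Tom dividing cells also had astrocyte markers, 181 (25.3%) precursor markers and 31 (4.33%) neuron markers. Another 182 (25.4%) met the rule for no lineage, so they held few markers or mixed ones. The rest fell in other lineages. Notch2 stood at 94.1, 97.7, 59.9 and 57.9 CPM in dividing cells with astrocyte markers and at 6.80, 5.80, 1.62 and 9.31 CPM in those with precursor markers. Lfng stood at 288, 94.3, 119 and 122 CPM in the first and 2.72, 17.4, 1.62 and 0 CPM in the second. Dll1 went the other way, with 0, 5.75, 7.18 and 6.44 CPM in the first and 50.3, 52.2, 37.3 and 37.2 CPM in the second. The ranges of these 3 genes did not overlap between the subgroups. The subgroups were cut by lineage markers, and the share of all genes without overlap there was not computed. Between the whole astrocyte and precursor classes 31.2% of all genes passed edgeR's test, which is another measure on other cells. Notch1 was present in both, at 179 to 211 CPM and 102 to 155 CPM. Dividing cells placed in no lineage, which may be mixed, held Dll1 at 41.5, 17.3, 39.0 and 47.8 CPM, Notch1 at 124 to 196 CPM and Hes5 at 201 to 507 CPM. The subgroups share libraries, and no test was made between them.

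**Figure D4:**
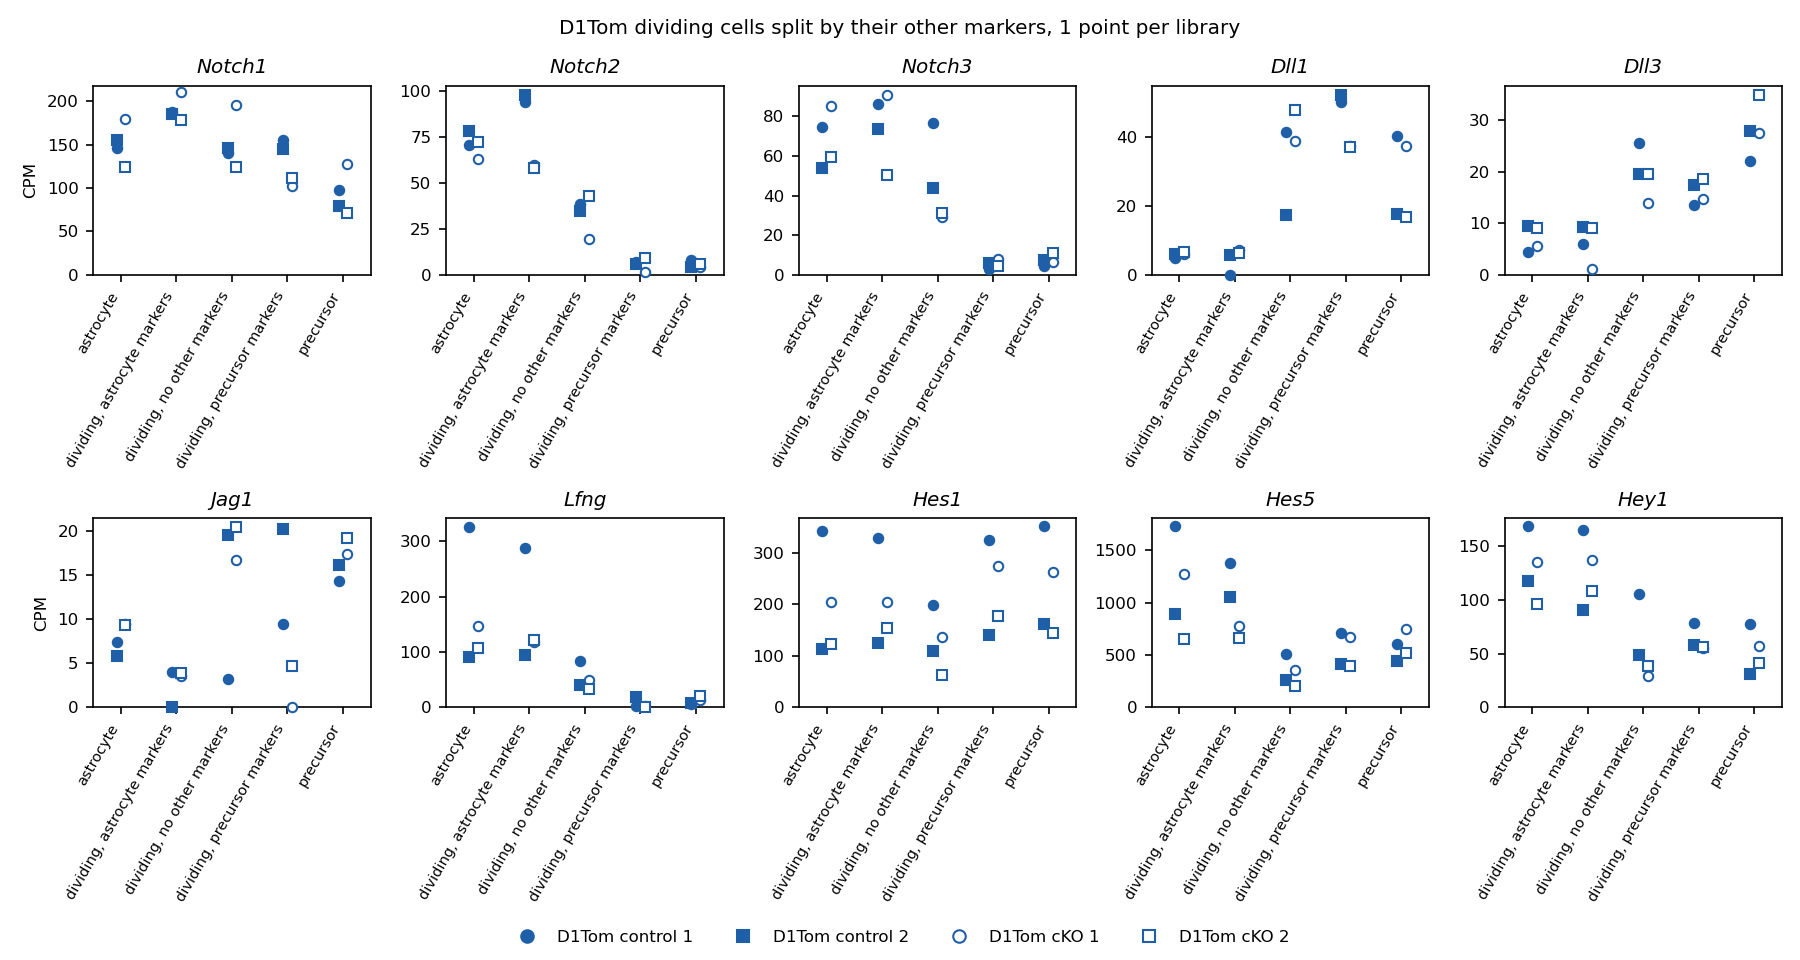
Levels of the 10 members (CPM) in D1Tom dividing cells split by the other markers they carried, between the astrocyte and precursor classes, with 1 point per library. From left to right the groups are astrocytes, dividing cells with astrocyte markers, in no lineage or with precursor markers, and precursors. Cells in no lineage, drawn as having no other markers, held few markers or mixed ones. Notch2 and Lfng are lower in dividing cells with precursor markers than in those with astrocyte markers in each library, and Dll1 is low in dividing cells with astrocyte markers (0 to 7.18 CPM).

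Precursors were split by stage markers into 697 D1Tom cells with more Pdgfra and Cspg4 counts, genes of early precursors, and 104 with more Gpr17 and Neu4 counts, genes of cells committed to become oligodendrocytes. Hes1 stood at 361, 184, 290 and 149 CPM in the first and 348, 68.0, 172 and 104 CPM in the second, higher in the first in 4 of 4 libraries although the ranges overlapped. Hes5 was higher in the first in 4 of 4 libraries too, at 454 to 736 CPM against 400 to 675 CPM. Dll1 had no common direction, with 40.8, 14.6, 40.1 and 14.2 CPM against 24.4, 30.2, 8.88 and 37.7 CPM. These differences were not tested, and the share of all genes with the same direction in 4 of 4 libraries was not computed. The second group was small, and control 2 held only 76 precursors of both groups.

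Over the 16 sums of 4 libraries by 4 classes in D1Tom, the gene of 11170 whose log2 level was most like Notch1 was Myo10 (Pearson r = 0.990). For Hes5 it was Fam181b (0.987), followed by the transcription factor gene Stat3 (0.986). For Lfng it was Loxl1 (0.985), for Hes1 Snap23 (0.982) and for Hey1 Slc6a9 (0.979). Notch2 (0.976) and Notch3 (0.985) were both most like Fgfr3, which is among the astrocyte markers, with Ppp2r5a second for each. For Dll3 it was Kcnmb4 (0.951), for Dll1 Chtop (0.928) and for Jag1 Rpl27 (0.879). Between members, Notch2 and Notch3 had r = 0.968, Notch1 and Hes5 0.946, and Dll3 and Lfng -0.89. These are descriptions over sums that share libraries and depth, and many genes follow the same class order.

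Of 44 other genes of the pathway, listed by role, 29 of 43 tested passed between D1Tom astrocytes and neurons by edgeR, 17 higher and 12 lower. Between precursors and neurons 24 of 43 passed (15 higher, 9 lower), between dividing cells and neurons 31 of 43 (18 higher, 13 lower), and between astrocytes and precursors 12 of 43 (6 higher, 6 lower). These counts read against the 64.3, 52.1, 66.3 and 31.2% of all genes that passed. Of the 5 other targets, 3 passed between astrocytes and neurons, all higher, whereas the 3 other ligands that passed were all lower. Nrarp, a target that feeds back on Notch, stood at 675, 268, 530 and 259 CPM in astrocytes and 24.5, 47.5, 26.9 and 47.9 CPM in neurons (3.53 log2 units, SE 0.34). Heyl (3.66, SE 0.41) and Hey2 (3.26, SE 0.24), repressors of the Hey family, were the other large differences in that comparison. Jag2, a ligand, was lower in precursors than in neurons by -2.81 log2 units (SE 0.41), with 0 to 5.87 CPM against 16.3 to 25.3 CPM, while Maml2, a coactivator of the Rbpj complex, was higher by 2.89 (SE 0.20). The receptor gene Notch4 was higher in astrocytes than in precursors by 1.32 (SE 0.34), as were Hey2 by 1.30 (SE 0.27) and the corepressor gene Tle1 by 0.96 (SE 0.21). In dividing cells Dlk1 exceeded neurons by 4.41 (SE 0.77) and was listed at 0 in cKO 1, with 12.2, 2.99 and 4.19 CPM in control 1, control 2 and cKO 2.

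In the GTE sort 12 of 32 other pathway genes passed between astrocytes and neurons (8 higher, 4 lower), 10 of 32 between precursors and neurons (7 higher, 3 lower) and 3 of 32 between astrocytes and precursors (2 higher, 1 lower), where 28.0, 27.5 and 16.0% of all genes passed. Adam17, a protease of the family that cuts Notch, was higher in GTE astrocytes than in neurons by 3.42 log2 units (SE 0.63) and higher in precursors than in neurons by 3.21 (SE 0.66). Hey2 stood at 18.8 to 35.9 CPM in GTE astrocytes and was at 0 in the neurons of all 4 libraries. Maml3, another coactivator gene, was lower than in neurons in astrocytes (-3.96, SE 1.06) and in precursors (-3.08, SE 1.09). Between GTE astrocytes and precursors, Dtx4 was higher by 1.48 (SE 0.47) and Tle1 by 1.21 (SE 0.33), and the ligand gene Dner was lower by -0.77 (SE 0.24).

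The comparison the series was built for, cKO against control, was then made for the members. Foxp2 itself stood at 58.5, 51.9, 13.6 and 17.5 CPM in D1Tom excitatory neurons, both cKO libraries below both controls (log2 fold change -1.87, edgeR adjusted p = 0.396), and at 36.3, 39.1, 26.5 and 19.4 CPM over all D1Tom cells (-0.67, adjusted p = 0.998). In D1Tom inhibitory neurons it was 14.4, 10.1, 43.8 and 54.1 CPM, both cKO libraries above both controls (1.96, edgeR adjusted p = 0.0703). Over all GTE cells it was 9.52, 46.9, 25.4 and 7.43 CPM (-1.19, edgeR adjusted p = 0.914). Counting at the 3′ end may read transcripts whose floxed part is gone, so these values do not check the deletion.

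None of the 10 members passed an adjusted p of 0.05 in any of the 11 cKO comparisons, by edgeR or by DESeq2. At an unadjusted p under 0.05 edgeR had 0 of 10 over all D1Tom cells and 2 of 10 over all GTE cells. Within D1Tom classes it had 1 of 9 in precursors, 1 of 10 in excitatory neurons and 1 of 10 in inhibitory neurons, and 0 in astrocytes, dividing cells and all neurons. It had 0 in GTE astrocytes, precursors and neurons, where 8, 5 and 3 members could be tested. DESeq2 had 1 such member in excitatory neurons, 1 in inhibitory neurons, 1 over all GTE cells and 0 elsewhere. The background was as low: edgeR called 0% of 14508 genes over all D1Tom cells, 0.0332% of 12042 over all GTE cells, 0.0566% of 10607 in D1Tom inhibitory neurons and 0% in each other comparison. With the batch as a replicate block edgeR called 1 gene over all D1Tom cells, 1 in astrocytes, 1 in precursors, 396 in dividing cells, 111 in neurons, 26 in excitatory neurons and 118 in inhibitory neurons. Hes5 in dividing cells was the 1 member among them.

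Over all D1Tom cells the members' log2 fold changes ran from -0.20 to 0.44 with a median of 0.02. Notch1 had the cKO libraries (77.0 and 81.9 CPM) just above the controls (56.4 and 75.3 CPM), and Dll1 likewise (11.3 and 9.52 against 9.46 and 6.62 CPM). The other 8 overlapped, and 9.73% of all genes had both cKO libraries above both controls and 13.9% both below. Hey1 was the steadiest member, at 64.3, 57.6, 60.9 and 59.7 CPM.

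In D1Tom astrocytes fold changes ran from -0.70 to 0.52, and no receptor separated the groups. Lfng had the lowest fold change, -0.70, and Hes1 had -0.48, but their controls differed from each other more than the groups did: Lfng stood at 325 and 90.9 CPM and Hes1 at 343 and 114 CPM in control 1 and control 2. Without control 2, Hes1 (-1.06, edgeR adjusted p = 0.0306) and Lfng (-1.34, adjusted p = 0.0063) passed, but with 1 control left, assumed to vary like the cKO libraries, 855 of all 12835 genes passed, against 0 with all libraries. Without control 1 their fold changes were 0.49 and 0.45. Control 1 was also the library with raised genes of the dissociation response. The 12 such genes summed to 4053 CPM in its astrocytes against 317 to 531 CPM in the other 3 libraries, with Fos at 1773 against 98.1 to 187 CPM, and their part in the result was not tested. Hes5 was lower in cKO within each batch (log2 ratios of -0.44 and -0.45) and differed more between batches, with 1729 and 1277 CPM in batch 1 and 889 and 653 CPM in batch 2. Dll1 (4.86 and 5.99 against 6.18 and 6.77 CPM) and Jag1 (7.42 and 5.83 against 9.50 and 9.40 CPM) had both cKO libraries above both controls, which 12.6% of all genes had.

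In D1Tom precursors fold changes ran from -0.35 to 1.29. Lfng had the highest, 1.29 (SE 0.56, edgeR unadjusted p = 0.042), at 6.08 and 7.34 CPM in controls and 13.2 and 19.3 CPM in cKO libraries. Its level in the astrocytes of these libraries was 90.9 to 325 CPM, and astrocyte markers had a median of 16.6 to 21.7 per 10000 counts in these precursors. The part of astrocyte RNA in the Lfng values was not tested. Jag1 was the other member with both cKO libraries above both controls (17.4 and 19.3 against 14.3 and 16.2 CPM), which 11.9% of all genes had. Hes5 stood at 599 and 444 CPM in controls and 750 and 517 CPM in cKO libraries, higher in cKO within each batch, while the groups overlapped.

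In D1Tom dividing cells Hes5 stood at 895 and 497 CPM in controls and 549 and 348 CPM in cKO libraries. It had a fold change of -0.58 without the block and of -0.56 with it, and only the blocked fit passed (edgeR adjusted p = 0.00684). That fit called 396 genes, against 0 of 11544 without the block. Hes5 was lower in cKO in 2 of 2 batches, which are the libraries of the same fit. Notch2 (47.4 and 49.0 against 26.7 and 41.4 CPM) and Notch3 (54.9 and 49.7 against 41.9 and 36.8 CPM) had both cKO libraries below both controls, which 18.4% of all genes had, and Dll1 (22.6 and 15.3 against 23.4 and 26.8 CPM) both above, which 12.0% had. Astrocyte markers in these cells had medians of 63.1 and 56.2 per 10000 counts in controls and 22.5 and 45.0 in cKO libraries. Summed over the cells the list of 15 astrocyte markers was closer between groups, at 5943 and 5452 CPM in controls and 5091 and 5392 CPM in cKO libraries. Other lists separated the groups: inhibitory neuron markers (9 of 10 in the table) stood at 112 and 167 CPM in controls and 497 and 619 CPM in cKO libraries, and 7 neuroblast markers at 721 and 1130 against 1629 and 2262 CPM. The dissociation genes stood at 2167 CPM in control 1 and 335 to 452 CPM in the other libraries. The part of these lists in the member values was not tested. Within dividing cells that carried astrocyte markers, Hes5 stood at 1379 and 1051 CPM in controls and 772 and 659 CPM in cKO libraries. That order was not tested, and the share of all genes with it in this subgroup was not computed.

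In D1Tom excitatory neurons Hes1 stood at 32.3 and 41.9 CPM in controls and 62.4 and 52.6 CPM in cKO libraries, with no overlap, and Dll1 (6.07 and 6.23 against 8.95 and 7.85 CPM) did not overlap either, where 14.9% of all genes had both cKO libraries above. The Hes1 fold change was 0.61 (SE 0.17, edgeR unadjusted p = 0.0115, not called after adjustment). Over all neurons Hes1 (27.8 and 38.3 against 48.2 and 43.0 CPM) and Dll1 (6.26 and 6.29 against 9.09 and 7.88 CPM) had both cKO libraries above both controls, as 13.9% of all genes had. In inhibitory neurons, most of which arise outside the domain of the Cre, Notch1 had the largest fold change of the members, 1.59 (SE 0.56, edgeR adjusted p = 0.609), with 7.65 and 7.55 CPM in controls and 11.8 and 35.5 CPM in cKO libraries. Of all genes 18.3% had both cKO libraries above both controls there and 17.5% both below, as Dll3 (25.4 and 36.1 against 25.2 and 13.5 CPM) and Jag1 (7.34 and 9.23 against 3.92 and 3.38 CPM) had. The Notch1 value rested mainly on cKO 2, which had 96 inhibitory neurons and where Hes5 was high as well (92.9 CPM against 33.0 to 50.3 CPM). Without cKO 1 both passed (Notch1 2.33, edgeR adjusted p = 0.00142, and Hes5 1.26, adjusted p = 0.00404), but with 1 cKO library left, assumed to vary like the controls, 460 of all 10035 genes passed, against 6 with all libraries. Without cKO 2 the Hes5 fold change was -0.40. The astrocyte marker list in those neurons of cKO 2 stood at 14.8% of its astrocyte level against 3.85 to 7.78% in the other 3 libraries, and its part was not tested.

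**Figure D5:**
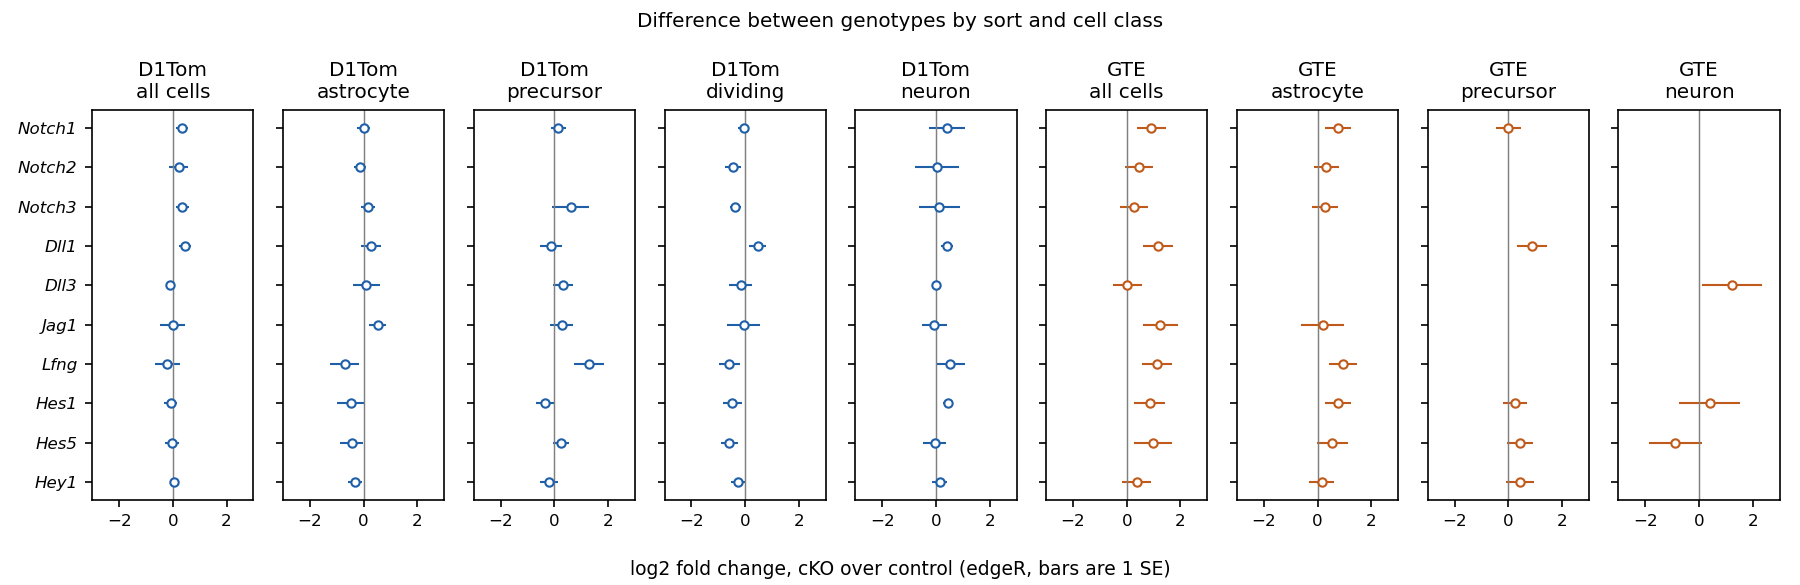
Log2 fold change of cKO over control (x axis, points with bars of 1 SE, edgeR) for each member tested, over all cells and in each class of the D1Tom and GTE sorts. No point passed an adjusted p of 0.05; over all D1Tom cells the points lie between -0.20 and 0.44 and over all GTE cells between 0.03 and 1.26.

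Over all GTE cells every member had a higher mean in cKO, with fold changes from 0.03 to 1.26 and a median of 0.88, and 5 had both cKO libraries above both controls: Notch3, Dll3, Hes1, Hes5 and Hey1. Of all genes, 19.9% did so and 6.97% lay below. The lead came from cKO 1, the glia-rich library. Hes1 stood at 66.3, 88.8, 310 and 94.1 CPM, Dll1 at 6.07, 9.22, 45.2 and 6.72 CPM and Lfng at 7.88, 10.2, 49.1 and 9.72 CPM. In each case cKO 1 was far above the other 3, which lay close together. Dll1 (1.17) and Lfng (1.12) had unadjusted p of 0.040 and 0.045 by edgeR, and without cKO 1 the Dll1 fold change was -0.16. The astrocyte marker list summed to 9563 CPM in cKO 1 against 3584 to 7222 CPM in the other GTE libraries. The precursor list summed to 5495 CPM against 1368 to 2018 CPM, the oligodendrocyte list to 2399 against 219 to 409 CPM, and the neuron list to 3300 against 4949 to 6214 CPM. Their part in these values was not tested.

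Within GTE astrocytes the fold changes of the 8 members tested ran from 0.15 to 0.95. Notch1, Notch3, Hes1, Hes5, Hey1 and Lfng had both cKO libraries above both controls and Dll1 and Dll3 both below, where 26.3% and 8.87% of all genes did. These shares are of genes with at least 20 counts. Dll1, at 2.53 and 6.52 CPM in controls and 2.41 and 0 CPM in cKO libraries, had fewer and is outside them. Hes1 stood at 138 and 151 CPM in controls and 417 and 188 CPM in cKO libraries, and Hes5 at 628 and 442 against 1206 and 737 CPM. Here too cKO 1 was the highest library. The 15 neuron markers were lower in the same cells of both cKO libraries, at 2338 and 3337 CPM against 3828 and 4304 CPM in controls, and the 15 astrocyte markers stood at 18403 and 14158 against 11307 and 15386 CPM, and their part was not tested. In GTE precursors only Jag1 was above in both cKO libraries (27.4 and 19.8 against 0 and 17.5 CPM), as were 19.0% of all genes, while 9.38% were below. GTE neurons, with 35 cells in cKO 1, held too few counts of 7 members to test. The difference between the sorts in the cKO effect, tested over all 8 libraries, ran from -1.34 to 0.08 for the members, and none passed by edgeR (lowest adjusted p = 0.941, 0 of 10 at an unadjusted p under 0.05) or DESeq2, where edgeR called 0% of 14026 genes.

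In D1Tom astrocytes, precursors and dividing cells, the controls differed from each other by more than the genotype means did for Hes1, Hes5 and Hey1. In neurons Hes1 had both cKO libraries above both controls, as 13.9% of all genes had, and was not called by edgeR. In D1Tom astrocytes, precursors and dividing cells Hes1 was higher in control 1 than in control 2 by 3.02, 2.18 and 2.13 times, and in neurons lower (0.724 times). Both batch 1 libraries exceeded both batch 2 libraries for Hes1 and Hes5 in astrocytes, precursors and dividing cells. Notch1, Notch2 and Notch3 in astrocytes moved between the controls by 0.935, 0.901 and 1.38 times. The day of preparation and the sex of the cKO library differ together between batches, and these cannot be told apart.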

How the data were processed

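The submitters' processing notes name bcl2fastq 2.17.1.14, Cell Ranger 2.1.1, FastQC 0.11.5, UMI-tools 0.5.4, STAR 2.5.2b, featureCounts of Subread 1.6.2 and SAMtools 1.6, and the builds mm10 and GRCm38.p6. The authors deposited 1 table of UMI counts per sort, genes by cells, with no normalization, and these counts were used as deposited. Values of 2 were 0.307 to 1.69 times as frequent as values of 1, by library, so no Poisson interval is given.

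Cells were put in classes by marker counts per 10000 counts: at least 60 for astrocytes, 40 for precursors, 100 for neurons and 15 for dividing cells, and, relative to these thresholds, 1.5 times any other lineage; dividing cells were set apart first. Cells in no class were 10.6 to 32.6% of each D1Tom library and 7.99 to 75.3% of each GTE library. Counts were summed per library and class and fitted in edgeR 4.0.16 (R 4.3.3) with TMM scaling, filterByExpr and the quasi-likelihood test, adjusted by Benjamini-Hochberg over all genes tested. DESeq2 1.42.0, other scalings and filters, a replicate block, stricter classes, removal of cells with high doublet scores and leaving out each library were alternatives. Doublets were otherwise kept. The code was tested on simulated counts. Members and lists were chosen with earlier results of these data known. All 10 members are named in each comparison, and of the 44 other pathway genes the 3 largest called differences per class comparison.

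In D1Tom the replicate number marks the preparation day in the labels, and deviations of same-numbered libraries correlated (0.50 over 14508 genes). In GTE the labels repeat the D1Tom batch wording with sexes that do not match, and the correlation was -0.35 (12042 genes). Promoters came from RefSeq (GRCm38.p6).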

Additional observations from a re-analysis of the deposited data

Results flagged for a closer look

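For 5 members, both cKO libraries lay above both controls in one class and below both in another class of the same sort, or in the same class of the other sort. Notch3 was also below both in D1Tom dividing cells (54.9 and 49.7 CPM in controls, 41.9 and 36.8 CPM in cKO libraries) and above both in GTE dividing cells (0 and 12.4 CPM, 13.6 and 49.7 CPM), a class too small to be fitted and not used for these pairs. The difference between them was not tested in any of these, and no member that was tested in the classes themselves passed. Dll1 and Dll3 in GTE astrocytes and Notch1 and Notch3 in GTE neurons had too few counts for the edgeR fit. Each value is the cKO mean minus the control mean in CPM. Dll1 differed by 1.05 CPM in D1Tom astrocytes and by -3.32 CPM in GTE astrocytes. Dll3 differed by -5.68 CPM in GTE astrocytes and by 17.0 CPM in GTE neurons. Jag1 differed by 2.83 CPM in D1Tom astrocytes and 3.09 CPM in D1Tom precursors, and by -4.64 CPM in D1Tom inhibitory neurons. Notch1 differed by 96.2 CPM in GTE astrocytes and by -9.9997 CPM in GTE neurons. Notch3 differed by 16.2 CPM in GTE astrocytes and by -4.18 CPM in GTE neurons. Of genes with at least 20 counts, 12.6% had both cKO libraries above in D1Tom astrocytes, 11.9% in D1Tom precursors, 26.3% in GTE astrocytes and 12.8% in GTE neurons, and 17.5% had both below in D1Tom inhibitory neurons, 8.87% in GTE astrocytes and 7.94% in GTE neurons. The GTE neuron values rest on 12 Notch1, 5 Notch3 and 29 Dll3 counts in all 4 libraries. Dll1 in GTE astrocytes, at 2.53 and 6.52 CPM in controls and 2.41 and 0 CPM in cKO libraries, had fewer than 20 counts. The GTE neuron values of Notch1 and Notch3 and this Dll1 value are therefore outside that background.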

How the results depend on the processing

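The counts of members called kept within 1.5 times of their value in 202 of 208 alternatives. The other 6 were 1 member in D1Tom dividing cells with the replicate block (Hes5), 1 in D1Tom inhibitory neurons with no filter (Notch1, edgeR adjusted p = 0.0312), leave-one-out counts of 0 to 2 in D1Tom astrocytes and in inhibitory neurons, and, with control libraries only, 2 between GTE astrocytes and precursors and 3 between GTE precursors and neurons, where fewer libraries were fitted. Of 847 log2 fold changes between classes 776 kept direction and side of the threshold, 49 lost the call, 1 gained it and 21 changed sign; of 89 between genotypes 79 kept both, 6 gained the call and 4 changed sign.

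All sign changes concern members not called. Between D1Tom precursors and neurons Notch2 was -0.91 in batch 2, 1.02 in batch 1 (edgeR adjusted p = 0.0364, the 1 call gained), -0.15 with no replicate block and -0.49 to 0.45 leaving out 1 library, Dll3 was -0.0339 in batch 1, and with controls only Notch3 was -0.0399 and Lfng -0.11. Between GTE astrocytes and precursors Notch1 was -0.13 with controls only, and Hes1 was 0.0075 without high doublet scores, 0.0123 with stricter classes and -0.22 to 0.0971 leaving out 1 library. Between GTE precursors and neurons Jag1 was 0.0182 by DESeq2, 0.21 without TMM, 0.0187 with no filter, 0.14 with no replicate block and -0.12 to 0.15 leaving out 1 library. In that comparison the leave-one-out ranges were -1.98 to 0.21 for Notch3, -0.0810 to 0.60 for Dll3 and -3.91 to 3.06 for Lfng. Between genotypes they were -1.06 to 0.49 for Hes1 and -1.34 to 0.45 for Lfng in D1Tom astrocytes, -0.40 to 1.26 for Hes5 in D1Tom inhibitory neurons and -0.16 to 1.83 for Dll1 over all GTE cells. The cause of these changes was not tested.

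The replicate block changed no other member call between genotypes. The batch-only fits were chosen after seeing the data, as was a crossed pairing of the GTE libraries, which called 24 genes over all cells, 7 in neurons and 0 in astrocytes and precursors, against 0 in each with the numbers as labelled. By DESeq2, 25 genes were called over all D1Tom cells, 6 in astrocytes, 0 in precursors, 23 in dividing cells, 23 in neurons, 6 in excitatory and 18 in inhibitory neurons, 2 over all GTE cells, 1 in GTE astrocytes, 0 in GTE precursors and neurons, and 7 for the difference between sorts. Without TMM the median of all genes moved from -0.05 to 0.38 over all GTE cells, from -0.04 to 0.23 in GTE astrocytes, from -0.07 to 0.12 in GTE neurons and from 0.01 to -0.13 between D1Tom astrocytes and neurons. At the depth of the GTE sort, 7 members had too few counts to be tested in neurons.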

Other observations

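Vessel cells were few. Jag1 in endothelial cells and Notch3 in mural cells stood higher than in the 4 classes compared above. In D1Tom endothelial cells, 8, 65, 6 and 35 per library (control 1, control 2, cKO 1 and cKO 2), Jag1 stood at 44.8, 72.1, 43.2 and 53.5 CPM, above every value of the astrocyte, precursor, dividing and neuron classes (at most 19.3 CPM). Notch1 stood at 171, 159, 149 and 197 CPM and Hes1 at 419, 239, 283 and 256 CPM in the same cells, and both overlapped their astrocyte values. In D1Tom mural cells, 3 to 7 per library, Notch3, a receptor known from vascular smooth muscle and pericytes, stood at 374, 316, 251 and 445 CPM, above its 54.0 to 85.2 CPM in astrocytes. These levels were not tested, because not every library held 20 such cells.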
